A study of Mus musculus with 17 samples.

Results

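Haemoglobin transcripts exceeded background in every naive and memory sample of CD8 T cells, taken from mouse spleen. They were bright in most of these samples and, as deposited, dimmest in memory sample 5. They lay at or near background in the samples grouped as cultured (LSEC-primed and effector). These include effector sample 8, whose source is also given as spleen. The genes described are Hba-a1, which encodes an adult alpha-globin chain, Hbb-bs and Hbb-bt, which encode adult beta-globin chains, and Alas2, the erythroid form of the enzyme that begins haem synthesis. They were found through the platform's annotation of the array probes, which gives 1 probe to Hba-a1, 6 to Hbb-bs, 4 to Hbb-bt and 1 to Alas2. These 4 genes are among 16462 named genes measured, and their 12 probes are among 45281. The genes were picked because spleen and culture samples differed in them, so those differences are given below as a description, without a test.

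RNA of T cells from OT-I mice, whose T-cell receptor recognises a peptide of ovalbumin, was hybridised to 17 Illumina bead arrays after labelling with biotin. All mice had a C57Bl/6 background and an age of 2 to 6 months, and the cells are labelled as isolated lymphocytes. The 5 naive samples (numbers 1, 2, 11, 12 and 13) and the 3 memory samples (3, 5 and 9) came from spleen, the memory cells 3 months after infection with Listeria monocytogenes carrying ovalbumin. The 4 LSEC-primed samples (4, 7, 14 and 15) came from coculture with liver sinusoidal endothelial cells (LSEC). The 5 effector samples (6, 8, 10, 16 and 17) were activated by dendritic cells, and 4 of them give coculture with splenic dendritic cells as their source, while effector sample 8 gives spleen. By its title, effector 8 was kept with the culture groups. Of the LSEC-primed samples, 3 have the cell type CD8+ Tpm in their labels and sample 4 the cell type CD8+ LSEC-primed. The labels do not say which samples came from separate mice or cultures, so a p-value here reflects sample-to-sample spread, which may be technical.

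Haemoglobin is a tetramer of alpha-type and beta-type globin chains, each of which holds a haem group that binds oxygen. Red cell precursors fill with globin mRNA, and young red cells still carry it after they have lost their nucleus. The mouse spleen holds many red cells and, unlike the adult human spleen, keeps making some of them. Alas2 makes the first haem precursor in the red cell lineage, whereas the related Alas1 does so in other cells.

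The 250 bases before each gene's RefSeq start (build GRCm38.p6) are shown because they let the 3 globin genes, which moved together on the arrays, be set beside Alas2. Capitals mark every match, on either strand, to the letters CCAAT (a box of that name), the letters CACCC (likewise), the letters GATAA (which hold the core that Gata1 binds) and the letters ATATAA (a form of the box found shortly before many start sites). A match on the other strand appears as its reverse complement, and in Hbb-bt a forward and a reverse CCAAT stand side by side.
Hba-a1, chr11:32283422-32283671, plus strand: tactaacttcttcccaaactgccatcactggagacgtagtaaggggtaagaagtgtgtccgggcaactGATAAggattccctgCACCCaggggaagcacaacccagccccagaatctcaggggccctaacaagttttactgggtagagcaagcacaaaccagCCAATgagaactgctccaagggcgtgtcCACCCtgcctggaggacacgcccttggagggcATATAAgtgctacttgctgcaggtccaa
Hbb-bs, chr7:103827929-103828178, minus strand: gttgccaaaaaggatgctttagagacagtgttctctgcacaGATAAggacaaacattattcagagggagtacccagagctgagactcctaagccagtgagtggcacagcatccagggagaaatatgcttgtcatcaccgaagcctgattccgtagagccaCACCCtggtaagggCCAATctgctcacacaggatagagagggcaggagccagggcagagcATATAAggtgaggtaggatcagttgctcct
Hbb-bt, chr7:103813924-103814173, minus strand: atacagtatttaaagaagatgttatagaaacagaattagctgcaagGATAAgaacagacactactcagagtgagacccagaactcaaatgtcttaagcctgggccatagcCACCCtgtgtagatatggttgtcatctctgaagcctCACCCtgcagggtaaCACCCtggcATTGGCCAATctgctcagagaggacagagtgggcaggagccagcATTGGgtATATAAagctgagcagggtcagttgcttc
Alas2, chrX:150547167-150547416, plus strand: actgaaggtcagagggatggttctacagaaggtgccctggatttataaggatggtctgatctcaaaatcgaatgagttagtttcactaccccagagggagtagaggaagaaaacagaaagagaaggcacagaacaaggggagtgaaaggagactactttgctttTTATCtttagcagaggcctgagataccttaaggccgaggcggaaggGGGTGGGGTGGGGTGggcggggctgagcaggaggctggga

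All 3 globin windows held a CCAAT match, a CACCC match and an ATATAA match, a combination found in 446 of the 32851 RefSeq windows of the same length (1.36%). The first base of ATATAA lay 28 bases before the start in Hba-a1, 30 in Hbb-bs and 29 in Hbb-bt. The Alas2 window held 3 CACCC matches but no CCAAT and no ATATAA match. A GATAA match, left out of the combination above, was found once in each globin window and once in the Alas2 window. Taken singly the letters are common, since the CCAAT letters occur in 33.8% of the windows, the CACCC letters in 52%, the GATAA letters in 22.6% and the ATATAA letters in 9.1%. Hbb-bs and Hbb-bt were identical at 185 of 239 aligned bases (77.4%), and Hba-a1 and its neighbouring copy Hba-a2 shared a run of 247 identical bases. Hba-a2 has no probe under its own symbol here, and whether the globin probes tell these close copies apart was not tested.

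The arrays differed in brightness. Mean intensity over all probes was 140 on memory 3 and 96.7 on memory 5, against 227 to 471 on the other 15 arrays. Each array was given its own background level, which 16.7% of probes exceeded on memory 5 and 27.6% to 35.7% on the others. The levels below are intensities as deposited, without normalisation, and the differences are on the log2 scale after background correction and quantile normalisation, which brings all arrays to 1 distribution. CD8 T-cell markers were bright in all groups: Cd8b1, which encodes a CD8 chain, averaged 14.20 on this log2 scale over the naive and memory groups and 13.55 over the LSEC-primed and effector groups.

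Hba-a1 gave intensities of 3069, 1565, 2611, 1867 and 12009 on naive arrays 1, 2, 11, 12 and 13. Its memory values were 1295, 228 and 945 on arrays 3, 5 and 9. On the cultured cells it gave 86.2, 94.8, 81.8 and 92.6 on LSEC-primed arrays 4, 7, 14 and 15, and 90.6, 103, 86.6, 106 and 91.6 on effector arrays 6, 8, 10, 16 and 17. The lowest spleen-group value, on the dim memory array 5, was above the highest culture value, and no cultured sample exceeded its array's background level. Normalised log2 levels were 11.66 ± 0.94 (SD, n = 5) in naive, 11.17 ± 1.08 (n = 3) in memory, 5.85 ± 0.11 (n = 4) in LSEC-primed and 5.94 ± 0.15 (n = 5) in effector cells. The mean of the naive and memory groups was 5.52 (SE 0.31) above that of the LSEC-primed and effector groups on the log2 scale. Since the latter lay at background, a lower bound is given, 5.14 on the log2 scale or at least 35.1-fold. Such bounds hold only for quantile normalisation, the brightest probe and the background level used here. Under median scaling the difference of Hba-a1 was 4.63. In bulk RNA, fewer cells of a type and less RNA per cell cannot be told apart.

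Hbb-bs, read from the brightest of its 6 probes, gave 4740, 3546, 4122, 2600 and 19082 on the naive arrays in the same order. Its memory intensities were 1545, 455 and 2290. The LSEC-primed arrays gave 95.3, 114, 91.2 and 110, and the effector arrays 89.9, 104, 97.6, 117 and 104. The groups from spleen and from culture did not overlap, and naive 13 was the brightest array. Normalised log2 levels were 12.36 ± 0.91 in naive (SD, n = 5), 12.06 ± 0.54 in memory (n = 3), 6.15 ± 0.17 in LSEC-primed (n = 4) and 6.07 ± 0.06 in effector cells (n = 5). The spleen groups were 6.10 (SE 0.25) above the culture groups on the log2 scale. Against effector cells, of which no array exceeded background for this probe, the naive level was at least 68.4-fold and the memory level at least 55.5-fold higher.

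Hbb-bt, the second adult beta-globin gene of this locus, gave 4095, 2285, 3539, 2208 and 16088 on the naive arrays with its brightest probe. Its memory intensities were 1395, 352 and 1854. The LSEC-primed values were 92.7, 94.3, 95.9 and 90.9, and the effector values 86.0, 92.9, 92.3, 106 and 96.2. All 8 naive and memory arrays exceeded background and none of the 9 others did. Normalised log2 levels were 12.08 ± 0.96 in naive (SD, n = 5), 11.79 ± 0.62 in memory (n = 3), 5.96 ± 0.18 in LSEC-primed (n = 4) and 5.93 ± 0.09 in effector cells (n = 5). The difference between spleen and culture groups was 5.99 (SE 0.27) on the log2 scale, at least 50.4-fold with the brightest probe and quantile normalisation. It was 5.09 under median scaling and 4.64 with the mean of all its probes.

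Alas2 was far dimmer, with naive intensities of 156, 110, 132, 128 and 417. Its memory values were 95.6, 83.1 and 110. The LSEC-primed arrays gave 83.3, 95.9, 89.1 and 93.7, and the effector arrays 76.1, 98.7, 86.6, 104 and 104. As deposited, the memory and culture intensities overlapped, whereas after normalisation they did not. Normalised log2 levels were 7.08 ± 0.62 in naive (SD, n = 5), 6.38 ± 0.29 in memory (n = 3), 5.88 ± 0.06 in LSEC-primed (n = 4) and 5.88 ± 0.13 in effector cells (n = 5). The spleen groups were 0.85 (SE 0.17) above the culture groups on the log2 scale, and 7 of 8 naive and memory arrays but 0 of 9 others exceeded background. No minimum fold is given, since memory 5 was itself below background.

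**Figure D1:**
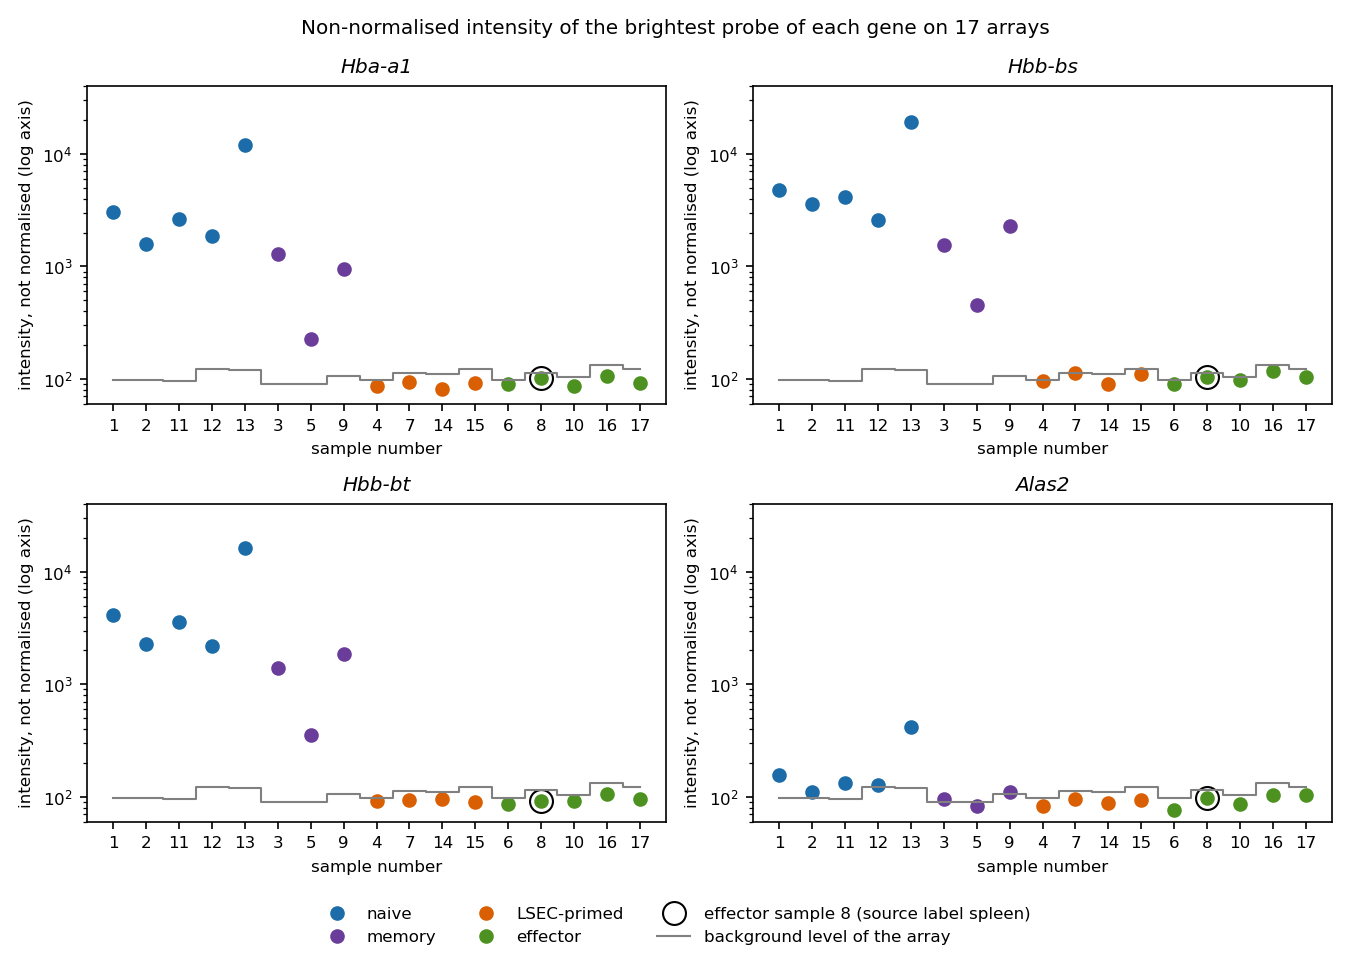
Intensity as deposited (vertical axis, log scale) of Hba-a1, Hbb-bs, Hbb-bt and Alas2 on each of the 17 arrays (horizontal axis, sample number), coloured by group, with the grey line at each array's background level and a ring around effector 8. Every naive and memory point of the 3 globin genes lies above every LSEC-primed and effector point, and naive 13 is the highest array in all 4 panels.

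Over the 11 globin probes, 88 of 88 values on naive and memory arrays exceeded background, as against 3 of 99 on LSEC-primed and effector arrays. Those 3 were all Hbb-bs probes and lay close to the limit: 114 with a background level of 112 on LSEC-primed 7, 99.8 with 97.7 on LSEC-primed 4, and 120 with 114 on effector 8. Mean normalised log2 level of the 11 probes ran from 10.11 to 12.60 over naive arrays and from 10.35 to 11.31 over memory arrays. As deposited, 1 Hbb-bt probe overlapped between groups, with 92.2 on memory 5, where background was 90.2, and up to 120 on the effector arrays. In the culture groups the mean of the 11 ran from 5.98 to 6.15 over LSEC-primed and from 5.97 to 6.06 over effector arrays.

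**Figure D2:**
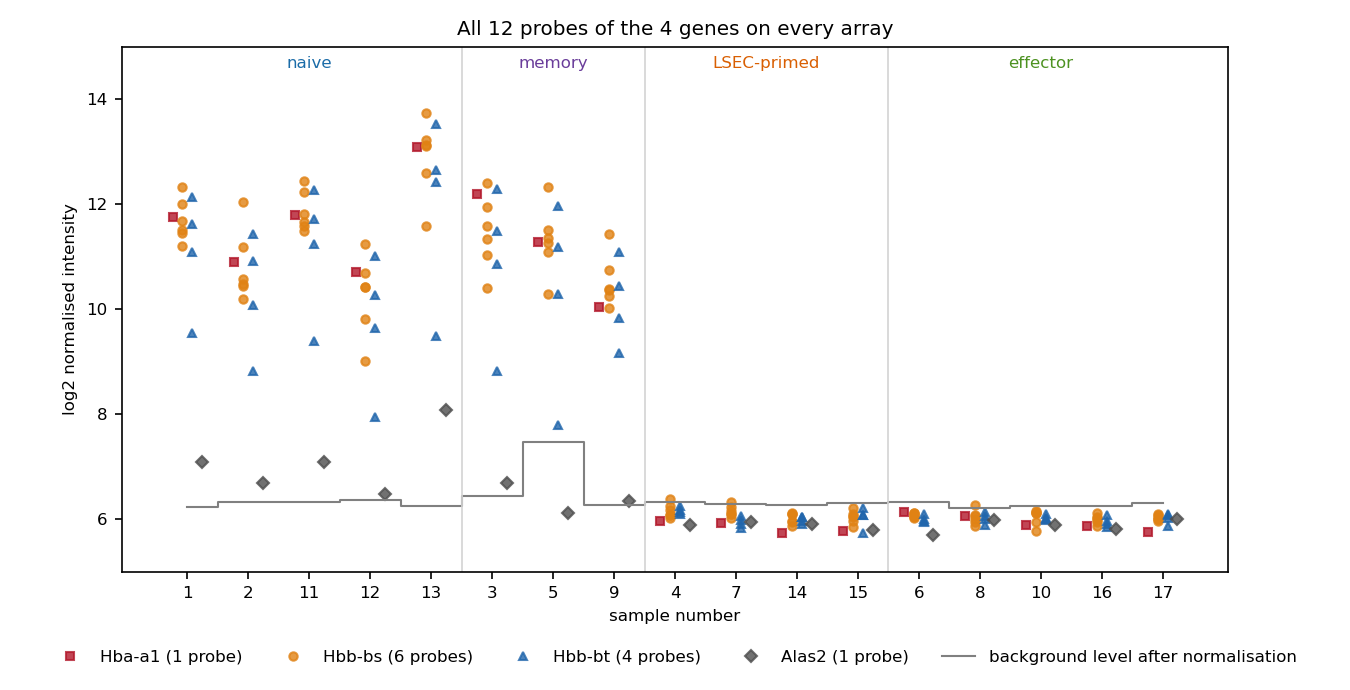
Normalised log2 level of each of the 12 probes of the 4 genes on the 17 arrays, (horizontal axis, sample number), marked by gene and parted by group, with the grey line at the background level. The 11 globin probes average between 10.11 and 12.60 on naive and memory arrays and between 5.97 and 6.15 on LSEC-primed and effector arrays.

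Effector sample 8, whose source is given as spleen, lay with the other effector samples. It had 1 of 11 globin probes above background, and its Alas2 value of 98.7 was below the level. The mean log2 level of its 11 globin probes was 6.03, within the 5.97 to 6.06 of the effector group. Averaged over the 12 probes, it was 0.03 above the mean of the 4 other effector samples on the log2 scale, and the difference was -0.28 with cyclic loess normalisation. Neutrophil and macrophage markers were also low in it: the summed normalised level was 782 for 12 neutrophil genes and 778 for 12 macrophage genes, within the effector ranges of 739 to 796 and 742 to 791.

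In all, 252 of 23699 features (1.06%) had every naive and memory array above every other array, and the 4 genes, selected on this contrast, were among them. By limma, 5412 features (22.8%) were called between spleen and culture groups in either direction. By size of that difference, Hbb-bs, Hbb-bt and Hba-a1 ranked 1, 2 and 3 of 23699, and Alas2 ranked 686. Only 2 features (0.00844%) exceeded background on all 8 naive and memory arrays and on none of the 9 others, and these were Hba-a1 and Hbb-bt. Hbb-bs missed this by 1 LSEC-primed array. For each pair of groups, the lower bound on the log2 difference of Hba-a1 was 5.36 for naive over LSEC-primed cells (13.1% of features called by limma), 5.39 for naive over effector (22.9%), 4.88 for memory over LSEC-primed (13.3%) and 4.91 for memory over effector cells (22.7%). The log2 bounds of Hbb-bt were 5.79, 5.82, 5.49 and 5.52 in the same order, and those of Alas2 were 0.79 and 0.81 for naive cells, with none given for memory cells, since memory 5 was itself below background. These comparisons share their samples. The ranks and bounds describe the contrast by which the genes were chosen and support nothing further.

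Memory and naive cells, and effector and LSEC-primed cells, were also compared with limma across all features. Memory and naive cells share the spleen as source, whereas effector and LSEC-primed cells came from different cocultures. The genes were picked on the spleen and culture contrast of the same arrays. Small differences within either side are therefore not independent of that choice. No gene of the 4 changed between memory and naive cells at adjusted p under 0.05, where 11.9% of features did. On the log2 scale, memory minus naive was -0.48 for Hba-a1 (95% interval -1.44 to 0.47, adjusted p = 0.563) and -0.30 for Hbb-bs (-1.08 to 0.48, adjusted p = 0.677). It was -0.29 for Hbb-bt (-1.13 to 0.54, adjusted p = 0.709) and -0.70 for Alas2 (-1.23 to -0.17, adjusted p = 0.0827). The groups overlapped for each gene, and the intervals of the globin genes reach below -1. When arrays were only scaled to equal medians, the memory level was lower for Hba-a1 (-2.16, adjusted p = 0.0238), Hbb-bs (-2.0, adjusted p = 0.0227) and Hbb-bt (-1.98, adjusted p = 0.0309). Under that scaling only 3.4% of the 2964 features called between memory and naive cells were higher in memory, against 47.1% of 2814 before. Without the dim memory arrays 3 and 5, Hba-a1 gave -1.62 (adjusted p = 0.119), and without these and naive 13 it gave -1.26 (adjusted p = 0.0343), but memory 9 is then the only memory array and is assumed to vary like the other groups. Without naive 12, Alas2 gave -0.86 (adjusted p = 0.0272).

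Effector and LSEC-primed cells did not differ detectably in any of the 4 genes, where 14.7% of features did by the same limma fit. Effector minus LSEC-primed was 0.09 for Hba-a1 (95% interval -0.78 to 0.97, adjusted p = 0.959), -0.08 for Hbb-bs (-0.79 to 0.64, adjusted p = 0.957), -0.04 for Hbb-bt (-0.81 to 0.73, adjusted p = 0.984) and 0.00 for Alas2 (-0.48 to 0.49, adjusted p = 0.998), on the log2 scale. Since nearly all of these values were at background, a difference below that level could not be seen.

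Among the 5 naive arrays, sample 13 stood highest. On the log2 scale it exceeded the mean of the other 4 by 1.81 for Hba-a1, 1.74 for Hbb-bs, 1.82 for Hbb-bt and 1.25 for Alas2. Over the 11 globin probes the excess ran from 0.57 to 2.13 with a median of 1.81. Ranked among 16462 named genes by this excess, Hbb-bt was number 7, Hba-a1 8, Hbb-bs 9 and Alas2 15. Other genes stood apart in naive 13 too: the Y-linked Eif2s3y ranked 1 with 5.23, Gdpd3 2 with 4.96, Cap1 3 with 3.14 and the Y-linked Kdm5d 5 with 1.94. Slc4a1, the anion exchanger of the red cell membrane, ranked 4 with 2.15, and the water channel Aqp1 ranked 18 with 1.15. The medians of the 6 red cell lists lay between -0.11 and 0.17 in naive 13 against the other naive arrays. Aqp1 and the genes ranked 1, 2, 3 and 5 were chosen after their values were seen. For 2 of the 11 globin probes, 1 of Hbb-bs and 1 of Hbb-bt, naive 13 was not the highest after normalisation and lay 0.08 and 0.05 below the next array on the log2 scale.

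Markers of other spleen cells did not put naive 13 highest, except for the platelet list. Among the other 4 naive arrays, the macrophage sums ran in the same order as the mean globin level, and the neutrophil sums nearly so. The memory arrays did not keep that order. Memory 5 had their highest macrophage sum (1379), and memory 3 their highest mean globin level (11.31). The summed normalised level of 12 neutrophil genes was 2276, 1282, 1370, 795 and 1088 on naive 1, 2, 11, 12 and 13, so naive 13 lay below naive 1, 2 and 11. For 12 macrophage genes it was 2519, 977, 2995, 955 and 965, again with naive 13 below those arrays. Naive 12 had 0 of 12 neutrophil genes above background, and its Hbb-bs intensity was 2600. Of the naive arrays it had both the lowest neutrophil sum and the lowest mean globin level (10.11). Platelet genes were near background throughout, with summed levels of 671, 644, 650, 638 and 694 on naive 1, 2, 11, 12 and 13, so naive 13 was highest. The sums were 645 to 711 over the memory arrays, with 3 genes above background on memory 9, and 621 to 658 over the effector arrays, and 5 of the 10 genes exceeded background on no array. The part of these cells in the globin values was not tested.

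**Figure D3:**
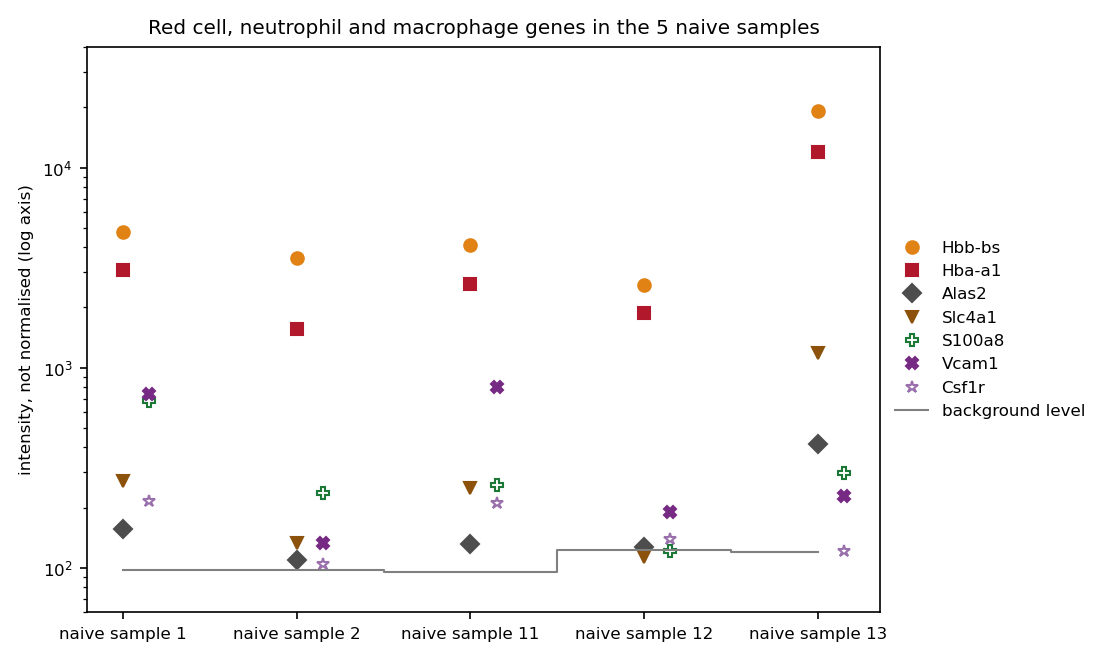
Intensity as deposited (vertical axis, log scale) of the red cell genes Hbb-bs, Hba-a1, Alas2 and Slc4a1, the neutrophil gene S100a8 and the macrophage genes Vcam1 and Csf1r on the 5 naive arrays (horizontal axis), 1 point per gene and array, with the grey line at each array's background level. Naive 13 is highest for the 4 red cell genes, at 19082 for Hbb-bs and 1179 for Slc4a1, whereas S100a8 is highest on naive 1 at 686 and Vcam1 on naive 11 at 805.

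The 4 genes varied together over the 8 naive and memory arrays after each group's mean was subtracted. Pearson's r was 0.92 for Hba-a1 with Hbb-bs, 0.96 for Hba-a1 with Hbb-bt and 0.98 for Hbb-bs with Hbb-bt, and Spearman's rho was 0.95, 0.98 and 0.98. Without the 2 arrays farthest from the median r was 0.86, 0.95 and 0.95. Alas2 went with Hba-a1 at r = 0.84, with Hbb-bs at 0.88 and with Hbb-bt at 0.91. Without naive 12 and 13, r with Hbb-bs fell to 0.37, so that relation rests on those arrays. With Hbb-bt it fell to 0.61 without the same arrays, and with Hba-a1 it rose to 0.94 without memory 9 and naive 13. These values describe 8 arrays that share a tissue source and their normalisation.

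Over all 17 arrays, the genes most like the mean of the 3 globin genes were Klf3 (Pearson's r 0.976), Pde7a (0.947), Axin2 (0.942), Bcl9l (0.942), Dtx1 (0.941), Ccdc88c (0.935), Hs3st3b1 (0.933) and Galnt10 (0.933). Klf3 encodes a Krüppel-like transcription factor, and its log2 level averaged 8.49 in naive, 8.75 in memory, 6.22 in LSEC-primed and 5.99 in effector cells. This likeness rests mainly on the gap between spleen and culture groups. Within the 8 naive and memory arrays, group means subtracted, the closest were Kdm1a (0.954), Gsdma (0.954), Higd1c (0.953), Thop1 (0.948) and Cdh5 (0.940). Gsdma and Higd1c exceeded background on no array. Slc4a1 ranked 236 of 16458 genes over the 17 arrays (r = 0.794) and 39 within the 8 (0.872), whereas Alas1 (-0.714) and Tfrc (-0.759) ran opposite to the globin genes over the 17. Within the 8, Alas1 (0.335) and Tfrc (0.294) did not.

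Of 84 other red cell genes in 6 lists, 70 were measured, and they did not move as a group. By limma, 10 were higher and 12 lower in spleen than in culture groups, where 10.4% and 12.4% of all features were called in those directions. That split depends on the scaling, since 45.5% of all calls were higher in spleen here and 9.0% under median scaling. Their median difference was 0.03 on the log2 scale, against 0.01 over all features, and 13 of the 70 exceeded background on no array. Of 5 other globin symbols measured, none was called, their median difference was 0.01, and 3 were above background on no array. They were the embryonic Hba-x, Hbb-bh1 and Hbb-y, the theta-globin Hbq1b, and Hbb-b2, an adult beta-globin symbol. Hbb-b2 gave 0.03 (adjusted p = 0.813) and exceeded background on 1 array. Whether C57Bl/6 mice carry a gene under that symbol was not tested here.

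Of the membrane and cytoskeleton genes, 2 of 16 were higher and none was lower, where 10.4% and 12.4% of all features were. Slc4a1 gave 273, 134, 252, 114 and 1179 on the naive arrays and 134, 80.4 and 122 on the memory arrays, while the highest of the 9 culture values was 106. It was 1.41 (SE 0.36) higher on the log2 scale in the spleen groups (adjusted p = 0.00864), and was above background on 6 of 8 spleen-group arrays and 0 of 9 others. No minimum fold is given, since naive 12 and memory 5 were themselves below background. Slc14a1, a urea transporter of red cells and other tissues, was 0.69 (SE 0.13) higher (adjusted p = 0.000663).

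Among 15 haem synthesis and transport genes, 3 were higher and 7 lower, where 10.4% and 12.4% of all features were. Their median was -0.14 on the log2 scale. Alas1 fell by 0.72 (SE 0.17, adjusted p = 0.00396), opposite in sign to its erythroid counterpart Alas2. Alad, the next enzyme of the pathway, fell by 0.69 (SE 0.11, adjusted p = 0.000133), and the mitochondrial carrier Slc25a39 fell by 0.85 (SE 0.19, adjusted p = 0.00261). Uros, a later enzyme, was 0.68 (SE 0.07) higher (adjusted p = 6.78e-07). Fech, which inserts iron to form haem, was called 0.22 (SE 0.07) higher (adjusted p = 0.0299) although it exceeded background on no array. Its call was lost without any 1 of naive 1, memory 3, memory 5, LSEC-primed 4, LSEC-primed 7 or effector 6. Slc25a37, the mitochondrial iron importer of red cell precursors, gave -0.06 (adjusted p = 0.728), and -0.80 (adjusted p = 0.0179) under median scaling.

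Of 7 transcription factors, Ldb1, an adaptor of the GATA1 complex, was 0.58 (SE 0.06) higher (adjusted p = 3.12e-06) and Nfe2 fell by 0.61 (SE 0.13, adjusted p = 0.00241). The master regulators of the lineage lay at background: Gata1 exceeded it on no array and Klf1 on 1 naive array. Of 10 receptor and iron genes, Tfrc, the transferrin receptor, fell by 2.03 (SE 0.21, adjusted p = 1.29e-06), and its normalised values in spleen and culture samples did not overlap. As deposited they did, with 1438 on naive 13 and 1300 on LSEC-primed 4. Ireb2, an iron-sensing regulator of mRNAs, was 0.53 (SE 0.11) higher (adjusted p = 0.00123). Epor, the erythropoietin receptor, gave -0.12 (adjusted p = 0.162) and exceeded background on 1 of 8 spleen-group and 5 of 9 other arrays.

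Of 17 red cell enzyme and maturation genes, 3 were higher and 3 lower, where 10.4% and 12.4% of all features were. Prdx2, an abundant red cell peroxidase that T cells also express, fell by 1.35 (SE 0.23, adjusted p = 0.000298), and Blvrb, a biliverdin reductase, fell by 1.12 (SE 0.30, adjusted p = 0.00996). Mkrn1 was 0.35 (SE 0.10) higher (adjusted p = 0.0112). Hagh was 0.35 (SE 0.12) higher (adjusted p = 0.0471), a call lost without many single samples. Car2 gave 0.05 (adjusted p = 0.802) and Bpgm 0.09 (adjusted p = 0.229), with Bpgm above background on no array. Under median scaling in place of quantile normalisation, Ldb1, Ireb2, Hagh, Mkrn1 and Fech turned negative, the Uros difference shrank to 0.14 (adjusted p = 0.665) and 3 of the 70 genes were called higher and 18 lower, where 1.86% and 18.8% of all features were. By its source label, effector 8 was also set as a spleen group of its own, weighing as much as the naive or memory group. There 2 of the 70 were called higher and 3 lower, where 3.19% and 5.59% of all features were. The calls of Slc4a1 (adjusted p = 0.238), Slc14a1, Alas1, Slc25a39, Nfe2, Ireb2, Blvrb, Hagh, Mkrn1 and Fech were lost. The Ireb2 call was also lost without the dim memory arrays 3 and 5 (0.35, adjusted p = 0.0676).

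**Figure D4:**
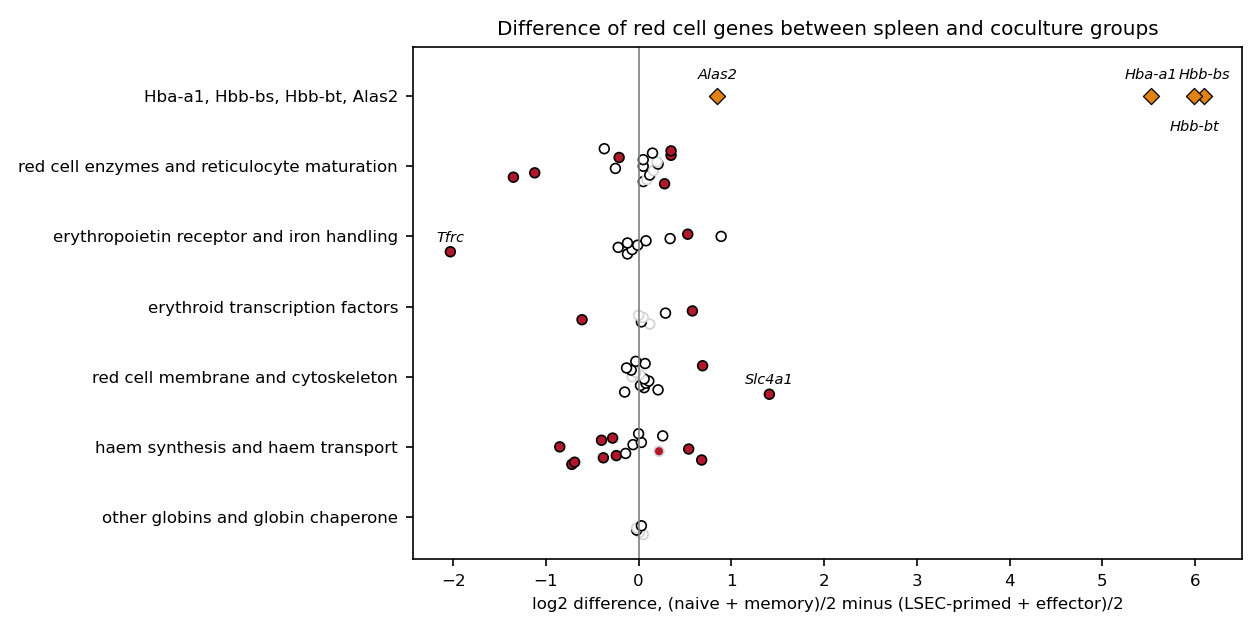
Log2 difference between spleen and culture groups (horizontal axis) for the genes of the 6 red cell lists. Red filled points have an adjusted p under 0.05, white points do not, a grey outline marks genes above background on no array, and the orange diamonds, not tested, are Hba-a1, Hbb-bs, Hbb-bt and Alas2, of which the 3 globin genes lie at 5.52 to 6.10 while the lists have a median of 0.03.

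Between memory and naive cells, 3 of the 70 listed genes were higher and 4 lower by limma, where 5.59% and 6.28% of all features were called. Alad was 1.25 (SE 0.16) higher in memory cells (adjusted p = 4.82e-05), Slc25a37 0.70 (SE 0.14) higher (adjusted p = 0.00324) and Uros 0.59 (SE 0.10) higher (adjusted p = 0.00048). Tfrc fell by 1.64 (SE 0.30, adjusted p = 0.00147) and Ireb2 by 0.65 (SE 0.16, adjusted p = 0.0108). Under median scaling Alad, Slc25a37 and Uros turned negative. With memory 9 as the only memory array, its spread taken from the other groups, Slc25a37 gave 0.32 (adjusted p = 0.427) and Uros 0.49 (adjusted p = 0.0618). Without memory 9 Ireb2 gave -0.46 (adjusted p = 0.0583). Between effector and LSEC-primed cells, 8 were higher and 8 lower, where 6.78% and 7.96% of all features were.

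Other cell types were also measured beside the globin difference. Of 12 neutrophil genes, 4 were higher in the spleen groups and none was lower, beside 10.4% and 12.4% of all features. S100a8, a calcium-binding protein of neutrophils, was 1.45 (SE 0.34) higher (adjusted p = 0.00453), S100a9 1.38 (SE 0.35) higher (adjusted p = 0.00668) and Ltf, lactoferrin, 0.73 (SE 0.18) higher (adjusted p = 0.00705). No neutrophil gene was called with effector 8 set as a spleen group of its own, weighing as much as the naive or memory group. Summed neutrophil levels were 795 to 2276 in naive, 807 to 2926 in memory, 779 to 833 in LSEC-primed and 739 to 796 in effector cells. The 2926 was on the dim memory 5, where 1 of the 12 genes exceeded background. S100a8 and S100a9 each exceeded it on 4 of 5 naive and 1 of 3 memory arrays, and Ltf on 4 and 2. No macrophage gene of 12 and no platelet gene of 10 was called, and 1 of 8 B-cell genes was higher. Of 10 dendritic cell genes, 2 were higher and 1 was lower. Of 15 genes of liver sinusoidal endothelium, 9 were lower in the spleen groups. The 15 summed to 4853 to 6934 in LSEC-primed cells against 997 to 2565 elsewhere. Their part in the globin result was not tested.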

How the data were processed

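RNA of 17 samples in 4 groups was measured on Illumina mouse bead arrays. The main values are intensities that the authors deposited without normalisation between arrays, per the file headers. A second deposited table holds intensities that, read from the values themselves, the authors had quantile normalised, and it served as an alternative. Differences were computed from the deposited intensity values after they were set on the log2 scale. Image analysis software is not given in the sources used here, and 3 columns without labels were not used.

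Intensities were background corrected (normexp, offset 50), quantile normalised and set to log2 with limma 3.58.1 in R 4.3.3. Probes above the array median on at least 3 arrays were kept, 35237 of 45281, all 12 probes described among them. The platform annotation gives 1 symbol to 34885 probes, several to 18 and none to 10378. The brightest probe stood for each symbol, which left 23699 features. Each array's background level lay 3 SD, taken from intensities under the mode, above that mode, a definition set after seeing the data, and "at least" folds use it. Those folds hold only for this level, quantile normalisation and the brightest probe. On a log2 scale the number of arrays limits the precision. Spleen minus culture is the mean of the naive and memory groups minus the mean of the LSEC-primed and effector groups.

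One limma model held all 4 groups (residual df 13, prior df 3.02), with Benjamini-Hochberg adjustment over all features and a threshold of 0.05. The steps were tested on simulated data. The genes, the 6 red cell lists and the 8 lists of other cells were chosen with earlier results of these data known. Genes named from a list were those with the largest called differences, up to 4 a list, with fixed landmarks of red cells, some of which are not reported here. Up to 3 of the brightest genes of each list of other cells could be named. Likeness was Pearson correlation with the mean of the 3 globin genes. Promoter windows came from RefSeq. Alternatives changed the input table, background correction, scaling, filter, probe choice, array weights, samples and the side of effector 8. For the last, effector 8 was a spleen group of its own with the same weight as the naive and the memory group.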

Additional observations from a re-analysis of the deposited data

Results flagged for a closer look

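No probe of Hba-a1, Hbb-bs, Hbb-bt or Alas2 had a naive, LSEC-primed or effector sample far from its group by Dixon's test. Of 143 sets of values tested, 12 had such a sample, and chance flags about 1 in 20. No result is given for the memory group. There, 1 Hbb-bs probe gave log2 levels of 11.34 and 11.35 on memory 3 and 5 but 10.25 on memory 9. All values below are log2 levels, each set beside the nearest other sample of the group, with the gap given as a share of the group's range.

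LSEC-primed 14 was the highest of its group in 5 genes. Tfrc stood at 11.87 against 10.77 (gap 0.89), Alas1 at 11.36 against 10.29 (0.83) and Car2 at 6.44 against 6.15 (0.92). The macrophage gene Csf1r stood at 7.25 against 6.34 (0.87) and H2-Ab1, of antigen-presenting cells, at 11.62 against 7.88 (0.92). LSEC-primed 15 was highest for Thop1, at 7.13 against 6.84 (0.98).

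Naive 2 was lowest for Slc25a39, at 6.24 against 6.85 (0.80), and for the endothelial gene Pecam1, at 6.92 against 8.81 (0.94). Naive 12 was lowest for Ldb1, at 12.22 against 12.51 (0.77). Effector 8, labelled spleen, was lowest for Alas1, at 10.21 against 10.52 (0.74), and highest for Ltf, at 6.24 against 6.03 (0.78). Effector 6 was highest for Kdm1a, at 10.90 against 10.73 (0.80).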

How the results depend on the processing

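No paired analysis was possible because the labels do not say which samples share a mouse or a culture. The 4 genes stayed higher in spleen than in culture groups under every alternative run. For spleen minus culture, median scaling gave 4.63 for Hba-a1, 5.20 for Hbb-bs and 5.09 for Hbb-bt. With effector 8 as a spleen group of its own, weighing as much as the naive or memory group, the values were 3.75, 4.05 and 3.97. The authors' processed values gave 5.51 for Hbb-bs and 5.34 for Hbb-bt, and the mean of all probes 5.24 and 4.64. With each sample left out in turn the range was 5.3 to 5.82 for Hba-a1, 5.89 to 6.27 for Hbb-bs, 5.77 to 6.18 for Hbb-bt and 0.71 to 0.94 for Alas2. Memory minus naive under median scaling was -2.16 for Hba-a1, -2.0 for Hbb-bs and -1.98 for Hbb-bt, past the threshold, as was Hba-a1 without memory 3, memory 5 and naive 13 (-1.26, chosen after seeing the data, with 1 memory array left) and Alas2 without naive 12 (-0.86). Left-out ranges were -0.99 to 0.08, -0.58 to 0.05, -0.56 to 0.07 and -0.88 to -0.44 for the 4 genes in that order, with the sign turned for Hba-a1 without memory 9 (0.08), for Hbb-bs without memory 9 (0.01) or naive 13 (0.05) and for Hbb-bt without memory 9 (0.05) or naive 13 (0.07). Effector minus LSEC-primed ran from 0.04 to 0.14, from -0.14 to -0.02, from -0.11 to 0.03 and from -0.03 to 0.05. It turned for Hba-a1 (-0.05) and Alas2 (-0.06) with cyclic loess, for Alas2 with effector 8 as spleen (-0.02) or without effector 8, LSEC-primed 15 (-0.02 each) or effector 17 (-0.03), and for Hbb-bt without LSEC-primed 4 (0.03).

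Of all features, 5412 were called for spleen minus culture and 2082 with effector 8 as spleen, which moved the share called higher from 45.5% to 36.4%. Median scaling gave 4899 calls with 9.0% of them higher, and 3.4% for memory minus naive (2964 calls), 3.0% for memory minus LSEC-primed (3999 calls, 40.4% before) and 4.7% for memory minus effector (5814 calls, 47.6% before). Memory minus naive fell from 2814 calls to 1720 with cyclic loess, 1510 without memory 3 and 5 and 1543 without naive 13 as well, with 47.1%, 53.1%, 56.8% and 57.4% higher. Median scaling took effector minus LSEC-primed from 3493 to 1524 (46.0% to 69.0% higher), naive minus LSEC-primed from 3110 to 1046 and naive minus effector from 5427 to 3191 (49.8% to 29.1% higher). Memory minus LSEC-primed fell from 3148 to 1466 with cyclic loess, 2013 with array weights, 1682 without memory 3 and 5 and 1639 without naive 13 as well. Left-out ranges were 5082 to 5727, 2099 to 3605, 2969 to 3970, 2653 to 3562, 4993 to 5890, 2439 to 3847 and 4706 to 5874 for spleen minus culture, memory minus naive, effector minus LSEC-primed, naive minus LSEC-primed, naive minus effector, memory minus LSEC-primed and memory minus effector.

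Of the 70 listed red cell genes, 10 were higher in spleen groups and 3 under median scaling or 2 with effector 8 as spleen, and 12 were lower and 3 with effector 8 as spleen (left-out ranges 7 to 11 and 11 to 13). For memory minus naive, 3 higher became 0 under median scaling and 3 to 5 with samples left out. The 4 lower became 11 under median scaling and 4 to 6 with samples left out. Median scaling called 0.430% of all features higher and 12.1% lower in that comparison. For effector minus LSEC-primed, 8 higher became 5 under median scaling and 7 to 8, and 8 lower became 1 and 5 to 10. Of all features, median scaling called 4.44% higher and 1.99% lower there. Single genes that turned for spleen minus culture under median scaling were Ldb1 (-0.46), Ireb2 (-0.05), Hagh (-0.26), Mkrn1 (-0.14), Fech (-0.04) and Cd8b1 (-0.23), and for memory minus naive Alad (-0.28), Uros (-0.24) and Slc25a37 (-0.39). Fech also turned with cyclic loess (-0.02) and without naive 1 (-0.03), memory 3 (-0.01) or memory 5 (-0.02), with a left-out range of -0.03 to 0.26. Slc25a37 for spleen minus culture passed the threshold under median scaling (-0.80). Others near 0 turned: Slc25a37 with the mean of probes or without memory 9 (0.03 each, range -0.13 to 0.03), Gata1 without memory 3 and 5, with or without naive 13 (-0.03), Klf1 without naive 1 (-0.00), and Car2 without memory 3 (-0.01, range -0.01 to 0.11) or without memory 3, memory 5 and naive 13 (-0.03). The mean of effector 8's probes, 0.03 above the other effector samples, became -0.28 with cyclic loess and 0.02 to 0.04 with samples left out. With background at 2 SD or 5 SD, 8 or 0 globin values of the culture groups exceeded it in place of 3. The cause was not tested for any of these changes.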
